A study of Homo sapiens with 2 samples.

Results

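The lysosomal hydrolases, lysosomal membrane proteins and subunits of the vacuolar proton pump (V-ATPase) were described in HCT116 cells, a human line derived from a colorectal carcinoma. Genes were taken by symbol: 32 named lysosomal genes, all of which were in the deposited table, and 20 genes whose symbol has the form of a V-ATPase subunit, which makes 52 of 28615 symbols. Expression was measured by RNA sequencing of poly(A) RNA in 1 library whose genotype is given as a knockdown of SRD5A1 and 1 library given as control. The titles tag the knockdown "Dox" and the control "KD", and the labels give no meaning for these tags, no time, no dose and no construct. SRD5A1 encodes steroid 5-alpha reductase type 1. The extraction text of both libraries mentions adipose material, whereas their labels name HCT116. Both groups share the cell line, and neither had replicates, so the values describe these 2 libraries and the spread between cultures is unknown.

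Lysosomes break down proteins, glycans and lipids with hydrolases that work at acidic pH. V-ATPase supplies that acidity: its V1 sector hydrolyses ATP on the cytosolic side and drives protons through the membrane-embedded V0 sector. Most soluble hydrolases carry mannose 6-phosphate and are delivered from the Golgi by the receptors M6PR and IGF2R. Many of these genes hold the CLEAR element in their promoters, which the transcription factors TFEB and TFE3 bind when they enter the nucleus.

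The core of the CLEAR element, TCACGTGA, was searched for in RefSeq promoter windows (GRCh38.p14, 250 bases before to 50 after each start). It is its own reverse complement, so 1 strand covers both, and it contains the shorter CACGTG. Windows were matched for 40 of the 52 genes, some with several starts. Of these 40, 7 genes (17.5%) held TCACGTGA, against 1.18% of all 27305 genes with a window. Of the 36 expressed genes among the 40, the same 7 did (19.4%), against 2.28% of all 7054 expressed genes with a window. CACGTG was held by 13 of the 40 (32.5%, against 8.77% of all), which is 36.1% of the 36 expressed (against 13.1%). The windows with the longer match belonged to IGF2R, LAMP1, MCOLN1, GAA, CTSA, ATP6V0D1 and ATP6V1G1. IGF2R held 3 copies, with first bases at -133, -75 and -29 from the start.

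The stretches from 140 bases before to 10 after the start are shown for these genes and for M6PR, since they carry the matches and include both mannose 6-phosphate receptors. Capitals mark TCACGTGA, except in M6PR, where they mark CACGTG in the window of 1 of its starts. The IGF2R stretch is chr6:159968942-159969091 (plus strand), ATP6V1G1 is chr9:114587629-114587778 (plus), M6PR is chr12:8949401-8949550 (minus) and LAMP1 is chr13:113297099-113297248 (plus). ATP6V0D1 is chr16:67481148-67481297 (minus), GAA is chr17:80101441-80101590 (plus), MCOLN1 is chr19:7522484-7522633 (plus) and CTSA is chr20:45891195-45891344 (plus).
IGF2R: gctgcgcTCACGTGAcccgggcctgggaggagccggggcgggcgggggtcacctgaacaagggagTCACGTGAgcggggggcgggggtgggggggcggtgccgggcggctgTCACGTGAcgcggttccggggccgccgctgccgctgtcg
ATP6V1G1: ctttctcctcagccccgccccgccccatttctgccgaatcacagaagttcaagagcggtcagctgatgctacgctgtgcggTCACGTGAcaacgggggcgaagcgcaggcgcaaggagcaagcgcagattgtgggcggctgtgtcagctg
M6PR: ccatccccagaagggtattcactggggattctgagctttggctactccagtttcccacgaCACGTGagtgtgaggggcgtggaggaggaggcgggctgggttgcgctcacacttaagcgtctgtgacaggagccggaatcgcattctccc
LAMP1: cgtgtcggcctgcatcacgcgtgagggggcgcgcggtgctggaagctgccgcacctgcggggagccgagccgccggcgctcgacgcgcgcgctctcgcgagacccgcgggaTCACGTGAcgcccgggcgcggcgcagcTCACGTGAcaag
ATP6V0D1: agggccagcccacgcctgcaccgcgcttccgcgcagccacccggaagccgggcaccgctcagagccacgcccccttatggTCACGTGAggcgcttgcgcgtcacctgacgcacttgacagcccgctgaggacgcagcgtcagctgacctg
GAA: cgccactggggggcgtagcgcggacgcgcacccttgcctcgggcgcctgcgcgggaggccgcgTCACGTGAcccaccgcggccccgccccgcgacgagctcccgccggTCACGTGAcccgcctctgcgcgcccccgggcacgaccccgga
MCOLN1: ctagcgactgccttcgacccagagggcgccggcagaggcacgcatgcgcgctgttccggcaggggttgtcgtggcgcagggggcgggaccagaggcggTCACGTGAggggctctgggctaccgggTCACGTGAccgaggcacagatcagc
CTSA: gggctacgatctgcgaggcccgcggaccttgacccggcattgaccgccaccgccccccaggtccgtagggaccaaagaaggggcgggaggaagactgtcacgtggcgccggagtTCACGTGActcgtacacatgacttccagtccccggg

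A match describes the letters of the window and does not show binding. The 7 expressed genes with TCACGTGA differed between libraries by -0.28 to 1.82 on the log2(FPKM + 1) scale (knockdown minus control, FPKM being fragments scaled by gene length and by sequencing depth), with a median of 0.70. The 29 expressed genes with a window and no such match had a median of -0.11. Over all 161 expressed genes with TCACGTGA the median was 0.39, beside 0.30 for all 10143 expressed genes, with or without a window. For CACGTG the order was the other way. The 13 expressed genes with it had a median of 0.33, below the 0.49 of all 923 expressed genes with it. The 23 with a window and no CACGTG had -0.19. M6PR and NEU1, which have the shorter match alone, marked the ends of the range over the 13 genes with CACGTG, at 2.06 and -1.17.

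The knockdown library held 54740670 counts and the control library 41814981. SRD5A1 was at 6.25 FPKM in the knockdown against 10.8 FPKM in the control library, a ratio of counts scaled to the library total (CPM) of 0.581 (95% counting interval 0.554 to 0.609). Mitochondrially encoded genes took 12.8% and 18.3% of counts, and the median gene of 10143 expressed genes (mean of at least 1 FPKM) was 0.30 higher in the knockdown library. Differences are given relative to 0, so a gene at 0.30 has the typical difference of these libraries. Of 7 colon epithelial markers in the table (EPCAM, CDH1, KRT8, KRT18, KRT19, VIL1 and CDX2) 6 were expressed, with summed levels of 1545 and 990 FPKM, and VIL1 had 4 and 0 counts. The expressed markers differed between the knockdown and control libraries, with KRT18 at 346 and 74.5 FPKM and CDX2 at 7.00 and 0.767. CDX2 was thus under 1 FPKM in the control library. EPCAM alone of the expressed markers was lower in the knockdown library, at 30.2 and 39.7 FPKM. Of 7 macrophage and leukocyte markers 0 were expressed, with sums of 0.259 and 0.611 FPKM, TYROBP at 0 counts in both libraries and PTPRC, LYZ and CD14 at 0 in 1 of them. Of 5 endothelial markers 0 and of 6 fibroblast markers 1 (COL1A1) were expressed. In bulk RNA, fewer cells that express a gene and less of its RNA per cell cannot be told apart.

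Of the 52 genes, 47 were expressed, and ATP6V0A2, ATP6V0A4, ATP6V1B1, ATP6V1E2 and ATP6V1G2 were below the threshold. A 2-fold or larger excess in the knockdown (a difference of 1 or more) was found for 2 of them, M6PR and IGF2R, or 4.26%, where 20.9% of all expressed genes were called higher. At least 2-fold lower were 5, CD68, TFE3, CTSB, NEU1 and ATP6V1A, or 10.6%, where 6.83% of all were. At a difference of 0.5 or more there were 9 of 47 (background 40.8%), at -0.5 or less 10 (background 16.3%), and 28 lay between (59.6%, against 42.9% of all expressed genes). The median was -0.11, and 35 of 47 lay below the median of all expressed genes. With 5 other scalings the median ran from -0.47 to -0.04 and stayed 0.37 to 0.46 below that of all genes. A constant factor moves all genes nearly alike, so scalings of that kind could hardly change this gap. Only removal of the length and GC trend could, and there the median lay 0.37 below. M6PR, IGF2R, CD68, TFE3, CTSB and NEU1 were 2-fold apart in each scaling. The background itself moved: of all genes 2-fold apart, 75.3% were higher in the main scaling (2115 higher, 693 lower), 52.9% with the median ratio set to 1 (1247 and 1109), 51.6% with the upper quartile set equal (1217 and 1142) and 60.9% with TMM factors (1482 and 951).

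**Figure D1:**
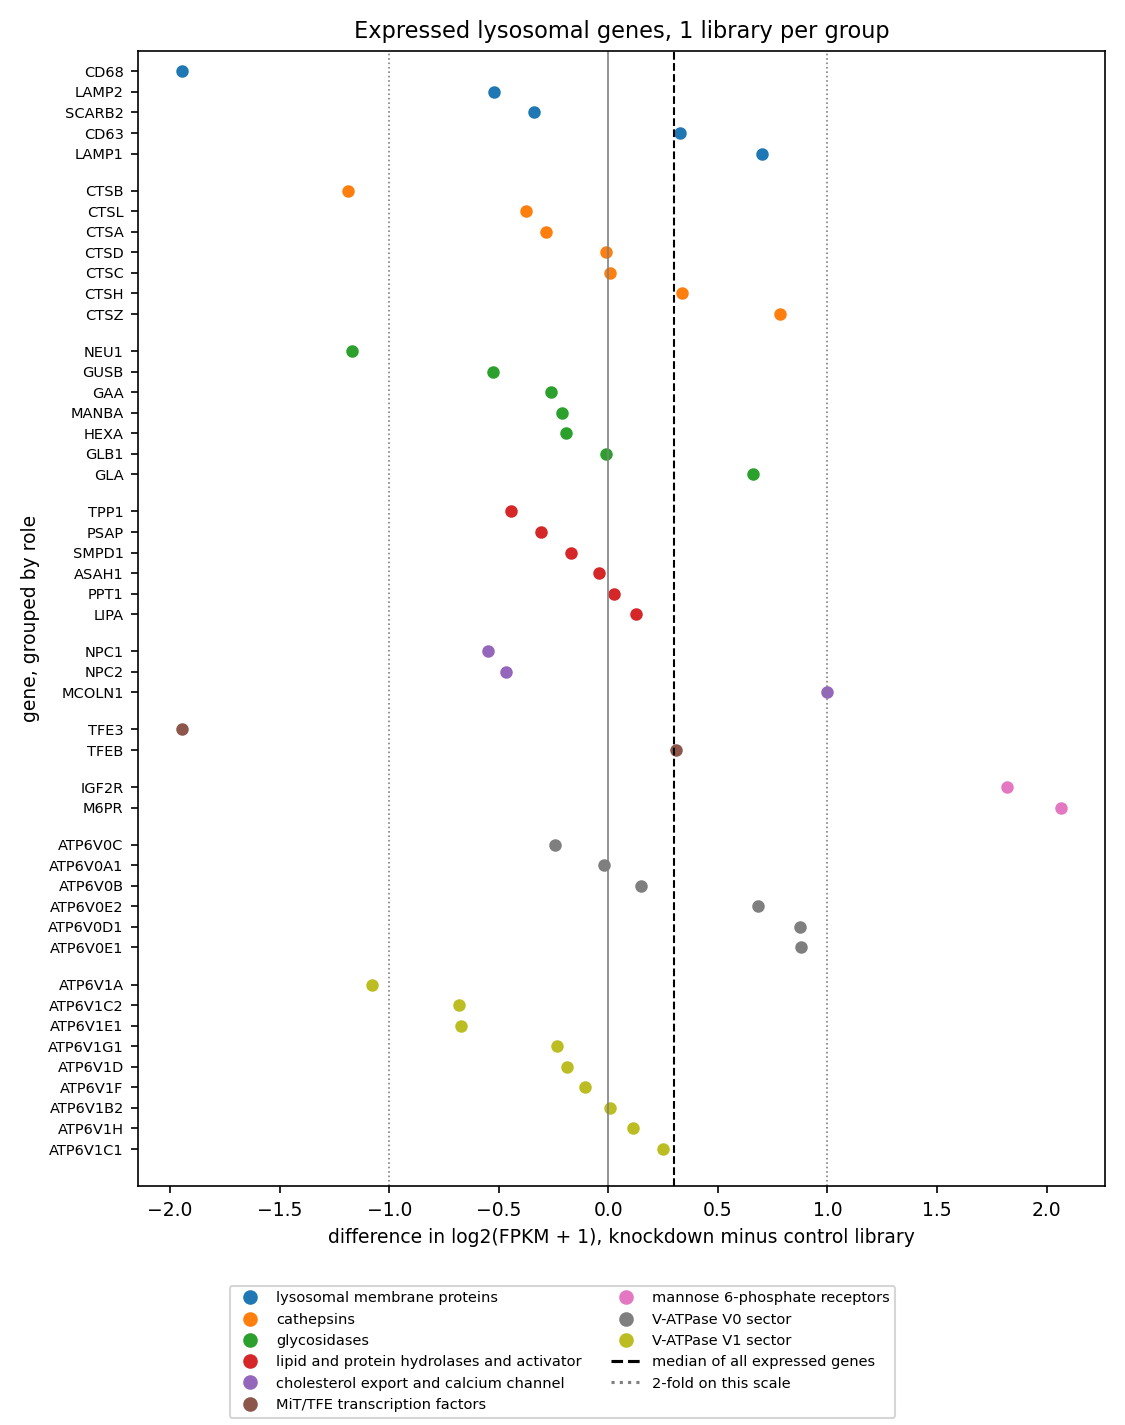
Difference in log2(FPKM + 1), knockdown minus control library, for the 47 expressed genes (1 point each, 1 library per group), ordered by role. The dashed line is the median of all expressed genes (0.30) and the dotted lines mark 2-fold on this scale. M6PR (2.06) and IGF2R (1.82) stand to the right and CD68 and TFE3 (both -1.94) to the left.

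Both mannose 6-phosphate receptors were higher in the knockdown library. M6PR, the small, cation-dependent receptor (ENSG00000003056, chromosome 12, 8940361 to 8949761, minus strand, positions as deposited, on GRCh38), was at 37.5 FPKM (8784 counts) in the knockdown and 8.20 FPKM (1470 counts) in the control library, a CPM ratio of 4.56 (4.32 to 4.83). Its difference exceeded that of 96.9% of expressed genes. PHC1, on the opposite strand, covers 29.3% of M6PR's exonic bases, and the sources used here do not state whether strand was used in counting. PHC1 itself had 1491 and 1838 counts, lower in CPM in the knockdown library. IGF2R, the large receptor, which also takes up insulin-like growth factor 2 (ENSG00000197081, chromosome 6, 159969099 to 160111504, plus strand), was at 8.77 FPKM (10231 counts) against 1.77 (1576 counts), a ratio of 4.96 (4.70 to 5.23).

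The genes that build the mannose 6-phosphate tag and sort its carriers were listed apart. Of 20 expressed genes of tagging and sorting, 3 were at least 2-fold higher (15.0%, against 20.9% of all expressed genes) and 1 lower (1 of 20, against 6.83%), with a median of 0.16 that turned sign with the median ratio, upper quartile and TMM scalings (-0.20 to 0.27 over all of them). GNPTG, a subunit of the phosphotransferase that makes the tag, was at 11.1 against 5.03 FPKM (1.003). AP1M2 and AP3D1, subunits of the adaptor complexes AP-1 and AP-3, were at 96.2 against 62.9 FPKM (0.60) and 16.0 against 8.16 (0.89). AP3S1, another AP-3 subunit, was lower, at 18.2 against 43.1 FPKM (-1.20), opposite in sign to AP3D1 of the same complex.

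The soluble luminal proteins are the cargo of these receptors. The 20 luminal enzymes and activators had a median of -0.18 (-0.47 to -0.15 over the scalings), and 17 lay below the median of all expressed genes. Between -0.5 and 0.5 lay 15 of the 20, where 42.9% of all expressed genes did. At least 2-fold higher were 0 (against 20.9% of all expressed genes) and 2-fold lower 2, CTSB and NEU1 (against 6.83%). The 20 genes together took 0.619% (knockdown) and 0.853% (control) of all counts. PSAP held 0.313% and 0.387% of all counts and CTSB 0.109% and 0.249%.

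PSAP, the precursor of the saposins that help degrade sphingolipids, had the highest level of all 52 genes in both libraries, at 823 FPKM (171452 counts) in the knockdown and 1018 FPKM (161961 counts) in the control, a ratio of 0.809 (0.803 to 0.814). The narrow interval shows only how deeply the gene was counted, since the spread between cultures is unknown.

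Of the 7 cathepsins, the lysosomal proteases, 1 was 2-fold lower (14.3%, against 6.83% of all expressed genes) and 0 were 2-fold higher (against 20.9%). CTSB, a cysteine protease (ENSG00000164733, chromosome 8, 11842524 to 11868713, minus strand), was at 125 FPKM (59604 counts) against 286 (104289 counts), a ratio of 0.437 (0.432 to 0.441). CTSD, the main aspartic protease, was at 99.96 against 100.8 FPKM (ratio 0.991, 0.971 to 1.01). In the deposited FPKM the level of CTSD was thus nearly the same in both libraries, with differences of -0.405 to -0.013 over the scalings. CTSB was far above CTSD in the control and close to it in the knockdown. CTSZ, a carboxypeptidase, was the highest of the group by difference, at 67.9 against 39.0 FPKM (0.78). CTSL, a cysteine protease, was at 45.1 against 58.9 (-0.38), and CTSA, the protective protein of neuraminidase and beta-galactosidase, at 22.6 against 27.7 (-0.28). CTSH, an aminopeptidase, was at 12.5 against 9.71 FPKM (0.33, between -0.03 and 0.33 over the scalings), and CTSC, the dipeptidyl peptidase that activates serine proteases, at 3.70 against 3.67 (0.01, a sign that turned with the scaling). Exons of CTSD are shared over 41.7% of their bases with another annotated gene of the same strand, which had 860 and 954 counts.

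Among the 7 glycosidases, 6 had a difference below 0, as did 3620 of all 10143 expressed genes. The other, GLA, lay above 0. NEU1, the sialidase that CTSA stabilises (ENSG00000204386, chromosome 6, 31857659 to 31862906, minus strand), was 2-fold lower, at 7.60 FPKM (2395 counts) against 18.3 (4412 counts), a ratio of 0.415 (0.394 to 0.436). GLB1, the beta-galactosidase of the same complex, was at 24.8 against 25.0 FPKM (-0.393 to -0.013 over the scalings). The 3 partners CTSA, NEU1 and GLB1 therefore had ratios of 0.816, 0.415 and 0.991. GLA, alpha-galactosidase A, was at 9.29 against 5.50 FPKM (0.66), and GUSB, beta-glucuronidase, at 11.7 against 17.4 (-0.53). Pseudogene copies of GUSB had up to 647 and 271 counts (GUSBP11), so reads of GUSB may be split. GAA, the acid alpha-glucosidase of glycogen breakdown, was at 77.3 against 92.8 FPKM (-0.26), HEXA, a subunit of beta-hexosaminidase, at 5.04 against 5.91 (-0.19), and MANBA, beta-mannosidase, at 2.01 against 2.48 (-0.21, 0.10 with the length and GC trend removed).

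The remaining luminal enzymes showed no 2-fold difference, where 20.9% of all expressed genes were 2-fold higher and 6.83% lower. All 6 of that group, PSAP included, lay below the median of all expressed genes. TPP1, a tripeptidyl peptidase, was at 6.18 against 8.75 FPKM (-0.44). SMPD1, acid sphingomyelinase, was at 3.28 against 3.82 (-0.17), and ASAH1, acid ceramidase, at 1.65 against 1.73 (-0.04). PPT1, a palmitoyl-protein thioesterase, was at 8.96 against 8.77 (0.03), and LIPA, the acid lipase that frees cholesterol from its esters, at 9.95 against 9.02 (0.13). The signs for ASAH1, PPT1 and LIPA turned with the scaling. CAP1, on the opposite strand, shares 23.4% of the exonic bases of PPT1 and had 11250 and 5660 counts.

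**Figure D2:**
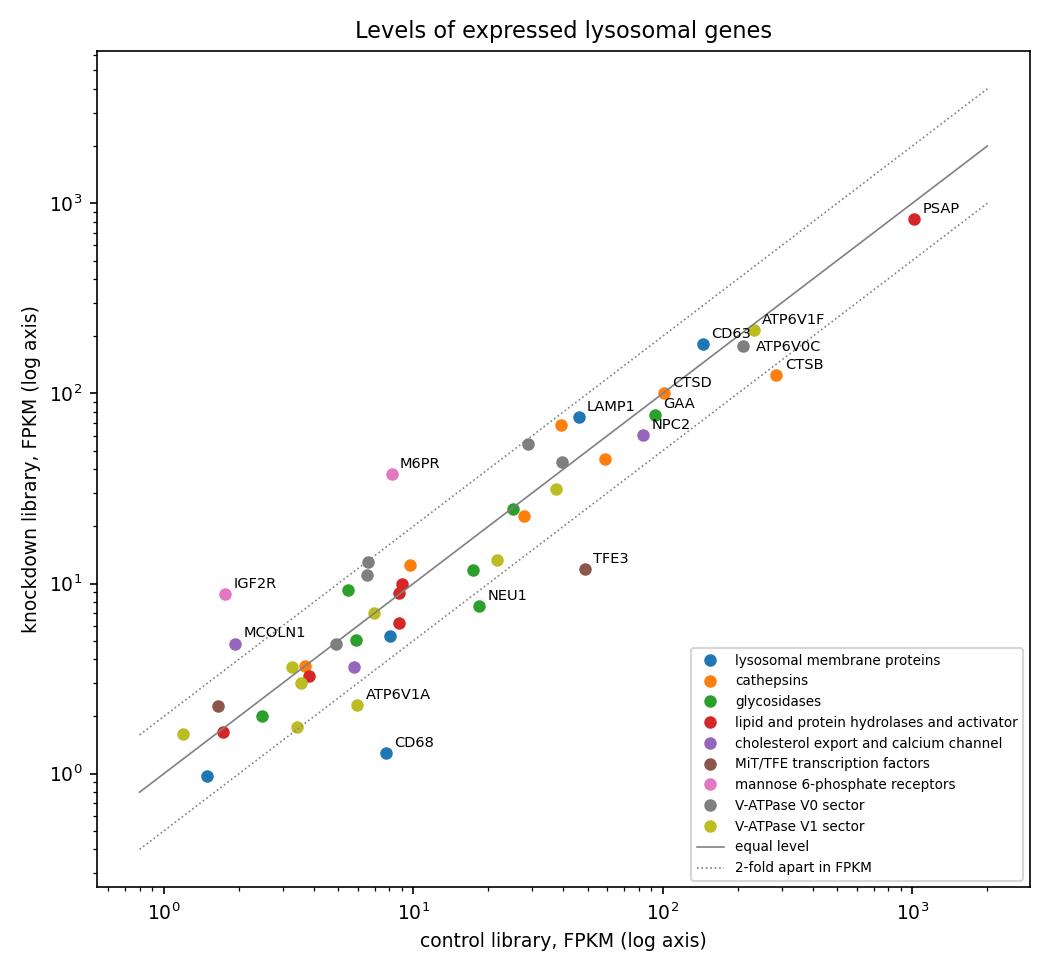
Level of each of the 47 expressed genes in FPKM, control library on the horizontal and knockdown library on the vertical axis, both logarithmic, coloured by role. Solid and dotted lines mark equal levels and 2-fold in FPKM. PSAP is highest in both libraries (823 and 1018 FPKM), and MCOLN1, at 4.83 against 1.93, lies above the upper dotted line although its difference with a pseudocount of 1 is 0.996.

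The other lysosomal hydrolases were listed apart from these genes, together with HGSNAT, SUMF1 and GM2A, which are not hydrolases themselves. Of 31 expressed, 5 were at least 2-fold higher (16.1%, against 20.9% of all expressed genes) and 3 lower (9.68%, against 6.83%). At 0.5 or more lay 10 and at -0.5 or less 10 (32.3% each, against 40.8% and 16.3%), with a median of -0.07 (-0.40 to -0.07 over the scalings). ACP2, a lysosomal acid phosphatase, was at 9.94 FPKM (2225 counts) against 0.817 (145 counts). NAGLU, which removes N-acetylglucosamine from heparan sulfate, was at 9.33 against 3.19 (ratio 2.92), and FUCA1, the alpha-fucosidase, at 19.5 against 8.39 (1.13).

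Of the 5 lysosomal membrane proteins, CD68 alone was 2-fold lower (against 6.83% of all expressed genes) and 0 were 2-fold higher (against 20.9%). With only 5 genes, these counts cannot set the group apart from all expressed genes. LAMP1 and LAMP2 are the major glycoproteins of the lysosomal membrane. LAMP1 was at 75.3 FPKM (28244 counts) against 46.0 (13172 counts), a ratio of 1.64 (1.60 to 1.67). LAMP2 was at 5.30 FPKM (1915 counts) against 8.03 (2217 counts), a ratio of 0.660 (0.620 to 0.702). The pair differed in opposite directions under each of the 6 scalings, LAMP1 between 0.31 and 0.70 and LAMP2 between -0.85 and -0.36. The constant factors lower the knockdown library by at most 0.397 in log2, so with them these signs were fixed in advance. Only removal of the length and GC trend could have turned them. CD63, a tetraspanin of late endosomes, was at 182 against 145 FPKM (0.33, and -0.07 at the lowest scaling). SCARB2, a glycoprotein of the lysosomal membrane, had 1234 against 1449 counts (-0.34, with a mean of 1.23 FPKM, close to the expression threshold).

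CD68, a lysosomal glycoprotein best known from macrophages (ENSG00000129226, chromosome 17, 7579491 to 7582111, plus strand), was at 1.28 FPKM (183 counts) against 7.79 (843 counts), a ratio of 0.166 (0.141 to 0.195). A processed transcript of the same strand covers 81.7% of its exonic bases and had 1098 and 4266 counts, also lower in the knockdown library, so the split of reads between these genes is uncertain. The macrophage markers above were at or near 0 in both libraries.

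NPC1 and NPC2 hand cholesterol out of the lysosome, and MCOLN1 releases calcium from it. NPC1 was at 3.64 FPKM against 5.79 (-0.55) and NPC2 at 60.1 against 83.5 (-0.47). MCOLN1 (ENSG00000090674, chromosome 19, 7522624 to 7534009, plus strand) was at 4.83 FPKM (1255 counts) against 1.93 (385 counts), a CPM ratio of 2.49 (2.22 to 2.80). On the log2(FPKM + 1) scale its difference was 0.996, short of the 2-fold threshold, which it passed with a pseudocount of 0.1 or in CPM. The cholesterol exporters and the calcium channel thus differed in opposite directions. Over the 6 scalings NPC1 stayed between -0.85 and -0.55 and MCOLN1 between 0.675 and 0.996. For the constant factors these signs were fixed in advance, since none exceeds 0.397 in log2 and all lower the knockdown library.

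Other lysosomal membrane proteins, 25 expressed, had a median of 0.50 (0.12 to 0.50 over the scalings), with 7 at least 2-fold higher (28.0%, against 20.9% of all expressed genes) and 0 lower (against 6.83%). Of the 25, 12 lay below the median of all expressed genes, and at a mean of at least 5 FPKM the median of the list was 0.11. TTYH3, a chloride channel, was at 21.9 against 7.32 FPKM (1.46), and ATP13A2, a polyamine exporter, at 25.8 against 9.96 (1.29). SLC17A5, the sialic acid exporter, was at 10.2 against 4.57 (1.01), and the transporter-like protein LAPTM4A at 89.3 against 179 (-0.999). In annotation columns of the deposited table, genes under the Gene Ontology term lysosomal lumen and not lysosomal membrane had a median of -0.09 (43 expressed, 13 of them among the 52 genes), and genes under lysosomal membrane and not lumen 0.19 (157 expressed). With the 52 genes left out the medians were -0.03 (30 genes) and 0.23 (142 genes), beside 0.30 over all expressed genes.

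Of the factors that bind the CLEAR element, TFE3 was 2-fold lower and TFEB lay at the typical difference of these libraries. TFE3 (ENSG00000068323, chromosome X, 49028726 to 49043410, minus strand) was at 11.9 FPKM (3270 counts) against 48.6 (10206 counts), a ratio of 0.245 (0.235 to 0.255), and its difference of -1.94 exceeded that of only 1.67% of expressed genes. TFEB was at 2.27 FPKM (841 counts) against 1.64 (467 counts), a ratio of 1.38 (1.23 to 1.54) and a difference of 0.31, beside 0.30 for the median gene and 0.04 at the lowest scaling. In FPKM, TFE3 had the higher level of the pair in both libraries. Their relatives were near absent, MITF with 17 and 25 counts and TFEC with 0 in both. RNA levels do not show where these proteins were in the cell.

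Genes of the kinase complex mTORC1 and genes that control it or these factors, activators and inhibitors together, had a median of 0.48 (19 expressed, 0.16 to 0.54 over the scalings). Of these, 3 were at least 2-fold higher (15.8%, against 20.9% of all expressed genes) and 0 lower (against 6.83%). RPTOR, the subunit that recruits substrates to mTORC1, was at 9.12 FPKM (6139 counts) against 1.65 (853 counts), a difference of 1.93. RRAGA, a Rag GTPase that holds mTORC1 at the lysosome, was at 34.2 against 12.1 FPKM (1.42). LAMTOR1, which anchors the Ragulator scaffold, was at 18.9 against 8.44 (1.08), while LAMTOR5 of the same scaffold was at 26.6 against 50.7 (-0.91).

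Most V-ATPase subunit genes differed little. Of 15 expressed subunit genes, 1 was 2-fold lower (6.67%, against 6.83% of all expressed genes) and 0 were 2-fold higher (against 20.9%). Between -0.5 and 0.5 lay 9 (60.0%, against 42.9% of all). With other scalings ATP6V1E1 also became 2-fold lower (-1.02 with the median ratio set to 1 and -1.04 with the upper quartile set equal) and ATP6V0E1 2-fold higher (1.06 with the length and GC trend removed). The V-ATPase genes took 0.132% and 0.129% of the counts. The 6 genes of V0 had a median of 0.42 (0.04 to 0.42 over the scalings, 0.16 with no filter and 0.69 at a mean of at least 5 FPKM). Of these 6, 3 were at 0.5 or more (50.0%, against 40.8% of all expressed genes) and 0 at -0.5 or less (against 16.3%). The 9 genes of V1 had a median of -0.19 (-0.50 to 0.07), with 0 at 0.5 or more and 3 at -0.5 or less (33.3%). The V1 median turned above 0 with the length and GC trend removed. Beside the 0.30 of all expressed genes, 3 of the 6 V0 genes and 9 of the 9 V1 genes lay lower. The difference between the sectors has no test here.

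In V0, 3 genes lay at 0.5 or more. ATP6V0D1, which joins the central stalk to the membrane ring, was at 12.9 FPKM (6896 counts) against 6.60 (2691 counts), a ratio of 1.96 (1.87 to 2.05). ATP6V0E1 and ATP6V0E2, alternative forms of the small subunit e, were at 54.1 against 28.9 FPKM (0.88) and 11.1 against 6.55 (0.69). The share of ATP6V0E1 in their summed FPKM was 82.9% and 81.5%, close to equal, and an antisense gene that covers 12.8% of the exonic bases of ATP6V0E2 had 147 and 0 counts. ATP6V0C, the ring subunit that carries protons, was at 177 against 210 FPKM (-0.24), and 57.5% of its exonic bases lie in another gene of the same strand that had 66 and 308 counts. ATP6V0B, a further ring subunit, was at 43.8 against 39.4 (0.15, and -0.24 at the lowest scaling). ATP6V0A1, a form of the proton-channel subunit a, was at 4.81 against 4.88 (-0.02). Of its alternatives, ATP6V0A2 was at 0.719 against 0.523 FPKM and ATP6V0A4, known from kidney, had 4 counts in each library. TCIRG1, which encodes the a3 form and does not carry an ATP6V symbol, was at 8.41 against 7.23 FPKM (0.19) and had the highest FPKM among the forms of subunit a.

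In V1, the catalytic subunit gene ATP6V1A (ENSG00000114573, chromosome 3, 113747033 to 113812056, plus strand) was 2-fold lower, at 2.30 FPKM (771 counts) against 5.97 (1526 counts), a ratio of 0.386 (0.353 to 0.421). With the length and GC trend removed its difference was -0.92, under the 2-fold threshold. Its partner in the catalytic ring, ATP6V1B2, was at 7.01 against 6.96 FPKM (ratio 1.01, 0.959 to 1.06). A and B alternate in the ring, and only the A gene of this pair was 2-fold apart. The second form of B, ATP6V1B1, known from kidney and inner ear, was at 0.213 against 0.896 FPKM (38 and 121 counts), and 62.4% of its exonic bases are shared with VAX2 of the same strand.

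The stalk subunits of V1 differed by form. ATP6V1C1 was at 1.61 against 1.20 FPKM (ratio 1.35, 1.18 to 1.54) and ATP6V1C2 at 1.75 against 3.41 (ratio 0.515, 0.453 to 0.585), so ATP6V1C2 made up 52.1% of their summed FPKM (knockdown) and 74.0% (control). PDIA6, on the opposite strand, shares 29.7% of the exonic bases of ATP6V1C2 and had 13249 and 12957 counts. ATP6V1E1 was at 13.3 against 21.7 FPKM (ratio 0.610, 0.580 to 0.642) and its second form ATP6V1E2, known from testis, at 1.37 against 0.271 (478 and 74 counts, ratio 4.93, 3.86 to 6.39). The common form made up 90.6% (knockdown) and 98.8% (control) of the summed FPKM of subunit E, and the sum differed by -0.56.

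ATP6V1G1 was at 31.5 against 37.2 FPKM (-0.23), and its neuronal form ATP6V1G2 was at 0.677 against 1.26 (97 and 137 counts). ATP6V1G2 shares exons with a readthrough gene of the same strand that had 919 and 251 counts. ATP6V1F, a small stalk subunit, was at 215 against 231 FPKM (-0.11), with 23.7% of its exonic bases under KCP on the opposite strand (126 and 310 counts). ATP6V1D, the central stalk, was at 2.98 against 3.54 (-0.19), and ATP6V1H, the regulatory subunit that stops detached V1 from hydrolysing ATP, at 3.63 against 3.28 (0.11). The signs for ATP6V1B2, ATP6V1F, ATP6V1G1 and ATP6V1H turned with the scaling.

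**Figure D3:**
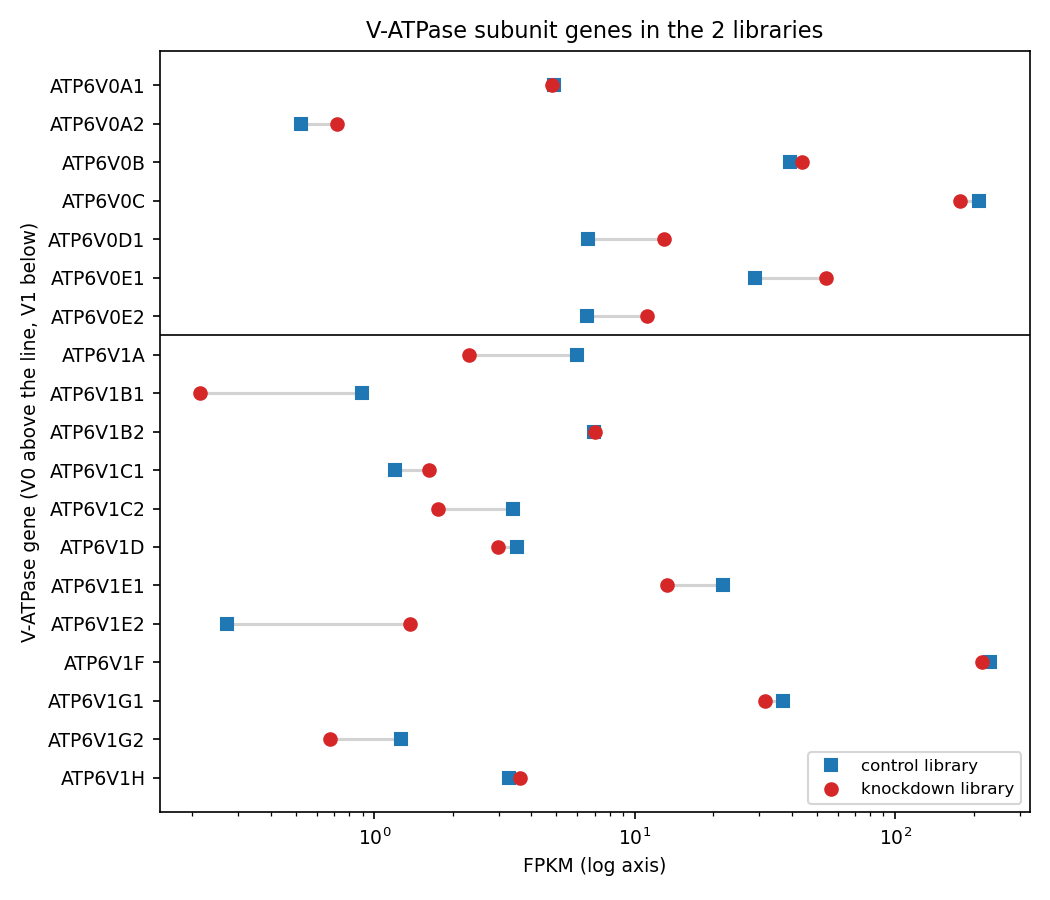
FPKM on a logarithmic axis of the V-ATPase subunit genes in the control (squares) and knockdown (circles) libraries, 1 library each, with V0 above the line and V1 below. ATP6V0A4, with 4 counts in each library, is left out. The circles of ATP6V0D1, ATP6V0E1 and ATP6V0E2 lie right of their squares, and that of ATP6V1A (2.30 against 5.97) lies left.

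Of 8 expressed genes for assembly and accessory proteins of V-ATPase, 1 was at least 2-fold higher (12.5%, against 20.9% of all expressed genes) and 0 lower (against 6.83%), with a median of 0.30 (-0.06 to 0.32 over the scalings). ROGDI, a homologue of a yeast assembly factor, was at 9.85 against 5.73 FPKM (0.69) and RNASEK, which copurifies with the pump, at 37.7 against 28.2 (0.41). The accessory subunit ATP6AP1 was at 35.7 against 36.6 FPKM (-0.03).

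Genes of endosome to lysosome fusion and positioning, 23 expressed, had 4 at least 2-fold higher (17.4%, against 20.9% of all expressed genes) and 0 lower (against 6.83%), with a median of 0.24 that turned to -0.06 with the upper quartile set equal and -0.05 with the median ratio set to 1. VAMP8, a SNARE of late fusion steps, was at 67.1 against 25.4 FPKM (1.36), RILP, an effector of RAB7A, at 6.81 against 3.47 (0.80) and VPS18, a core subunit of the HOPS tether, at 20.8 against 12.8 (0.66). RAB7A, the GTPase of late endosomes, was at 79.4 against 88.1 FPKM (-0.15).

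**Figure D4:**
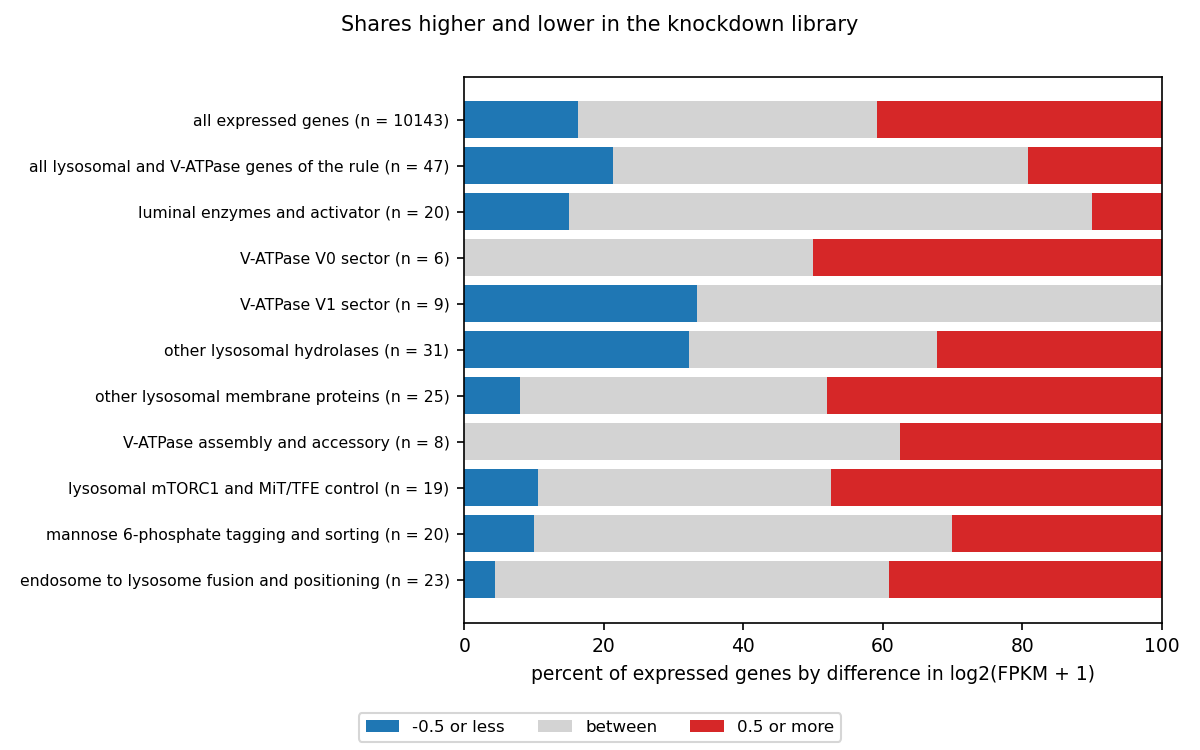
Percent of expressed genes with a difference in log2(FPKM + 1) of 0.5 or more (red), -0.5 or less (blue) or between (grey), for all expressed genes, for the 47 lysosomal and V-ATPase genes and their sectors, and for 6 further pathway lists. Of all expressed genes 40.8% are at 0.5 or more, and of the 20 luminal enzymes and activators 10.0%.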

How the data were processed

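Per the labels' protocols, poly(A) RNA of each culture was fragmented, reverse-transcribed and sequenced as paired ends. The submitters' processing notes name Bowtie 0.12.2, HISAT2 2.0 and StringTie 1.3.0 with no role, and the mouse build mm8, although the table holds human Ensembl identifiers. Of 31659 rows found in GENCODE release 29 (GRCh38), 69.2% have the same position there, as do 14 of the 52 genes, and the 52 share chromosome and strand with it. The authors deposited FPKM values, scaled to gene length and library total, and raw counts, in 1 table of 31798 rows. Which program counted the reads, and whether it used strand, is not stated in the labels or the table.

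Groups follow the labelled genotype. Rows were summed by symbol. The measure was the difference in log2(FPKM + 1), which understates differences of weakly expressed genes. Since each group had 1 library, no test between conditions was made. CPM ratios carry exact Clopper-Pearson 95% intervals that cover counting error only. The difference step was tested on simulated data. Alternatives were a pseudocount of 0.1, other filters and scalings (TMM from edgeR 4.0.16), CPM, removal of a length and GC trend (cubic in each, longest GENCODE transcript) and a 1.5-fold threshold. Exon overlaps are from GENCODE. All 52 genes are named, and in each pathway list up to 4 genes with the largest differences at a mean of at least 5 FPKM, with at least 1 against the list's median where one exists. 1 result is not reported here. Genes and lists were chosen with earlier results of these data known. Python 3.11.15 and R 4.3.3 were used.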

Additional observations from a re-analysis of the deposited data

How the results depend on the processing

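No paired analysis was possible because each group had 1 library, and for the same reason no library could be left out. Of the 47 genes, 12 turned sign with a scaling, none of them 2-fold apart. The largest scaling factor was 0.397 in log2, too small to turn the sign of a gene 2-fold apart. For the scaling factors, the lack of such turns was therefore fixed in advance. With the median ratio set to 1, the median of the 47 genes was -0.454, that of tagging and sorting -0.182 and that of fusion and positioning -0.048. With the upper quartile set equal these were -0.465, -0.197 and -0.057. With TMM factors the median of the 47 genes was -0.363 and that of fusion and positioning 0.014. With a filter at a mean FPKM of 5, fewer genes, 32, were left. Of these, 3 were 2-fold lower (against 6.81% of all genes passing that filter) and 2 higher (against 22.4%). At a 1.5-fold threshold and the usual filter, 9 of the 47 were higher and 7 lower, where 37.1% and 14.0% of all expressed genes were. Leaving out genes that share over 10% of their exonic bases with another gene, an alternative chosen after seeing the data, left 36 genes. Of these, 1 (IGF2R) was 2-fold higher and 4 lower, where 20.9% and 6.83% of all expressed genes were, overlapping ones included. With CACGTG in place of TCACGTGA, 13 promoters matched. Depth limits ATP6V0A4 (4 counts in each library), ATP6V1B1 and ATP6V1G2.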

Other observations

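The table annotates 122 symbols with the KEGG pathway Lysosome, of which 97 were expressed and 37 are among the 52 genes. Of these 97, 12 were at least 2-fold higher (12.4%, against 20.9% of all expressed genes) and 7 lower (7.22%, against 6.83%), with a median of 0.07, beside 0.30 over all expressed genes. The 62 expressed ones outside the 52 genes had a median of 0.19, with 10 higher (16.1%) and 4 lower (6.45%).

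Some genes of the pathway lists have a mean level under 5 FPKM and so fall outside the naming rule. The following 5, all higher in the knockdown library, were chosen for their large CPM ratios after their values were seen. Of these, HGSNAT and PQLC2 passed the expression threshold. HGSNAT, which acetylates heparan sulfate, had 1230 and 66 counts in the knockdown and control libraries, and the lysosomal cation channel TPCN2 had 1134 and 95. BORCS8, a subunit of the complex that positions lysosomes, had 580 and 22 counts, and SLC38A9, an arginine sensor of mTORC1, had 350 and 34. PQLC2, an exporter of basic amino acids, had 1234 and 134 counts. Other genes of these lists under 5 FPKM lay the other way. PLA2G15 had 444 and 1537 counts, CTSK 52 and 204, and TSC1, below the expression threshold, 250 and 829. The 5 genes thus do not describe the direction of their lists.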
